A study of Mus musculus with 12 samples.

Results

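The comparison described here is that of tumor-associated neutrophils (TANs) that lack the chemokine receptor Cxcr2 with TANs that carry it. Its members were the 4 libraries labelled genotype PyMT-Cxcr2-/- and the 4 labelled genotype PyMT among those with mammary tumor as their source, 8 of the 12 libraries of the series, and they were chosen by these labels alone. In the text, the first group is called Cxcr2-deficient and the second Cxcr2-intact TANs, while single libraries keep the names of the labels (PyMT-Cxcr2-/- TAN 4, PyMT TAN 2). All 8 mice were on the FVB background, 10 weeks old and carried the PyMT transgene, the polyoma virus middle T oncogene expressed in the mammary gland. Both groups thus came from tumor-bearing mice, but their tumors differed. In the study, tumors of PyMT-Cxcr2-/- mice were larger at 10 weeks than those of PyMT mice. Neutrophils also made up a higher share of their immune cells. Genotype and tumor size cannot be told apart in these 8 libraries. The PyMT-Cxcr2-/- mice lacked Cxcr2 in the whole animal from birth and not in neutrophils alone, and this line had been backcrossed to FVB, so that the tumor, the marrow and every other cell of these mice also lacked the gene. Cells were enriched for CD11b and then sorted as CD45+ CD11b+ Ly6G+ F4/80- cells, 1 library per mouse, and total RNA was depleted of ribosomal RNA before directional libraries were made. The remaining 4 libraries came from bone marrow (BM) neutrophils of WT FVB mice of the same age, and their values stand beside those of the TANs and enter only 1 of the alternative fits. In bulk RNA of sorted cells, fewer cells of a kind and less RNA per cell cannot be told apart.

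Neutrophils are made in the bone marrow, where granule proteins are produced in waves as the cell matures. Primary granules with myeloperoxidase and elastase are filled first, at the promyelocyte stage, secondary granules with lactoferrin and cathelicidin follow at the myelocyte stage, and gelatinase granules and secretory vesicles come last, so that the transcripts of granule proteins fall as the cell leaves the marrow. Cxcr2 is the receptor through which neutrophils respond to chemokines such as Cxcl1, Cxcl2 and Cxcl5, and it takes part in their release from the marrow and their entry into tissue. In tissue, neutrophils can turn on inflammatory cytokines, chemokines and interferon-stimulated genes.

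The counts assigned to genes numbered 25032704 to 43092085 per library of PyMT TANs and 35519181 to 51351569 per library of PyMT-Cxcr2-/- TANs, and 3 counts, the smallest level taken as measurable, corresponded to 0.0584 to 0.12 CPM (counts scaled to equal library size with TMM factors), a floor that covers counting error only. As a check of the labels, Cxcr2 was at 1029.5 to 1536 CPM in PyMT TANs and at 8.97 to 10.1 CPM in PyMT-Cxcr2-/- TANs, and it was left out of all counts that follow. On the 500 most variable genes, PyMT TAN 3 lay apart from the other 7 libraries on the first principal component and PyMT TAN 2 on the second. The 9 neutrophil markers (among them Csf3r, Itgam, S100a8 and Retnlg) summed to between 11929 and 18588 CPM in PyMT TANs and to between 20904 and 33842 CPM in PyMT-Cxcr2-/- TANs, against 77854 to 103210 CPM in BM, and were thus abundant in every library. Of the same 9 markers, 5 passed the test as higher in PyMT-Cxcr2-/- TANs, Ly6g, S100a8, S100a9, Retnlg and Cd177, and Ly6g encodes the surface protein on which the cells were sorted.

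TANs without Cxcr2 had higher transcripts of 7 of 13 secondary granule proteins, 5 of 12 gelatinase granule and secretory vesicle proteins and 4 of 8 S100 proteins, and lower transcripts of 4 of 31 type I interferon-stimulated genes, 3 of 14 TNF receptor genes and 3 of 36 splicing factors. Cytokines and adhesion molecules held calls in both directions. Of 18462 genes tested with edgeR's quasi-likelihood test, 255 were higher (1.38% of the genes tested) and 109 were lower (0.590%) in Cxcr2-deficient TANs at an adjusted p under 0.05 and a change of at least 1.5-fold. In each of these 364 genes, the 4 libraries of one group all lay above the 4 of the other in CPM, which was also so for 6.89% of all genes tested in the upward and 5.05% in the downward direction. The median log2 fold change (Cxcr2-deficient minus Cxcr2-intact) over all genes tested was -0.07. It was positive in 8116 genes (44.0%) and negative in 10346, the background for the sign counts of the lists below. The shares of 1.38% higher and 0.590% lower are the background for the counts of members that passed. Among 49 lists of functional classes with 1106 genes tested, 37 genes passed as higher and 23 as lower, and 28 lists held at least 1 of them. The calls rested strongly on single mice: without PyMT TAN 2, only 10 genes were higher and 12 lower, while 427 were higher without PyMT TAN 1, and the other 6 omissions gave 58 to 181 higher and 24 to 99 lower genes. Those 10 higher and 12 lower genes passed in each of the 8 fits that left out 1 mouse, and no gene of the 364 changed its direction in any of these fits. Every other gene called here thus lost its call without PyMT TAN 2, and further libraries on which a call depended are given beside it.

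**Figure D1:**
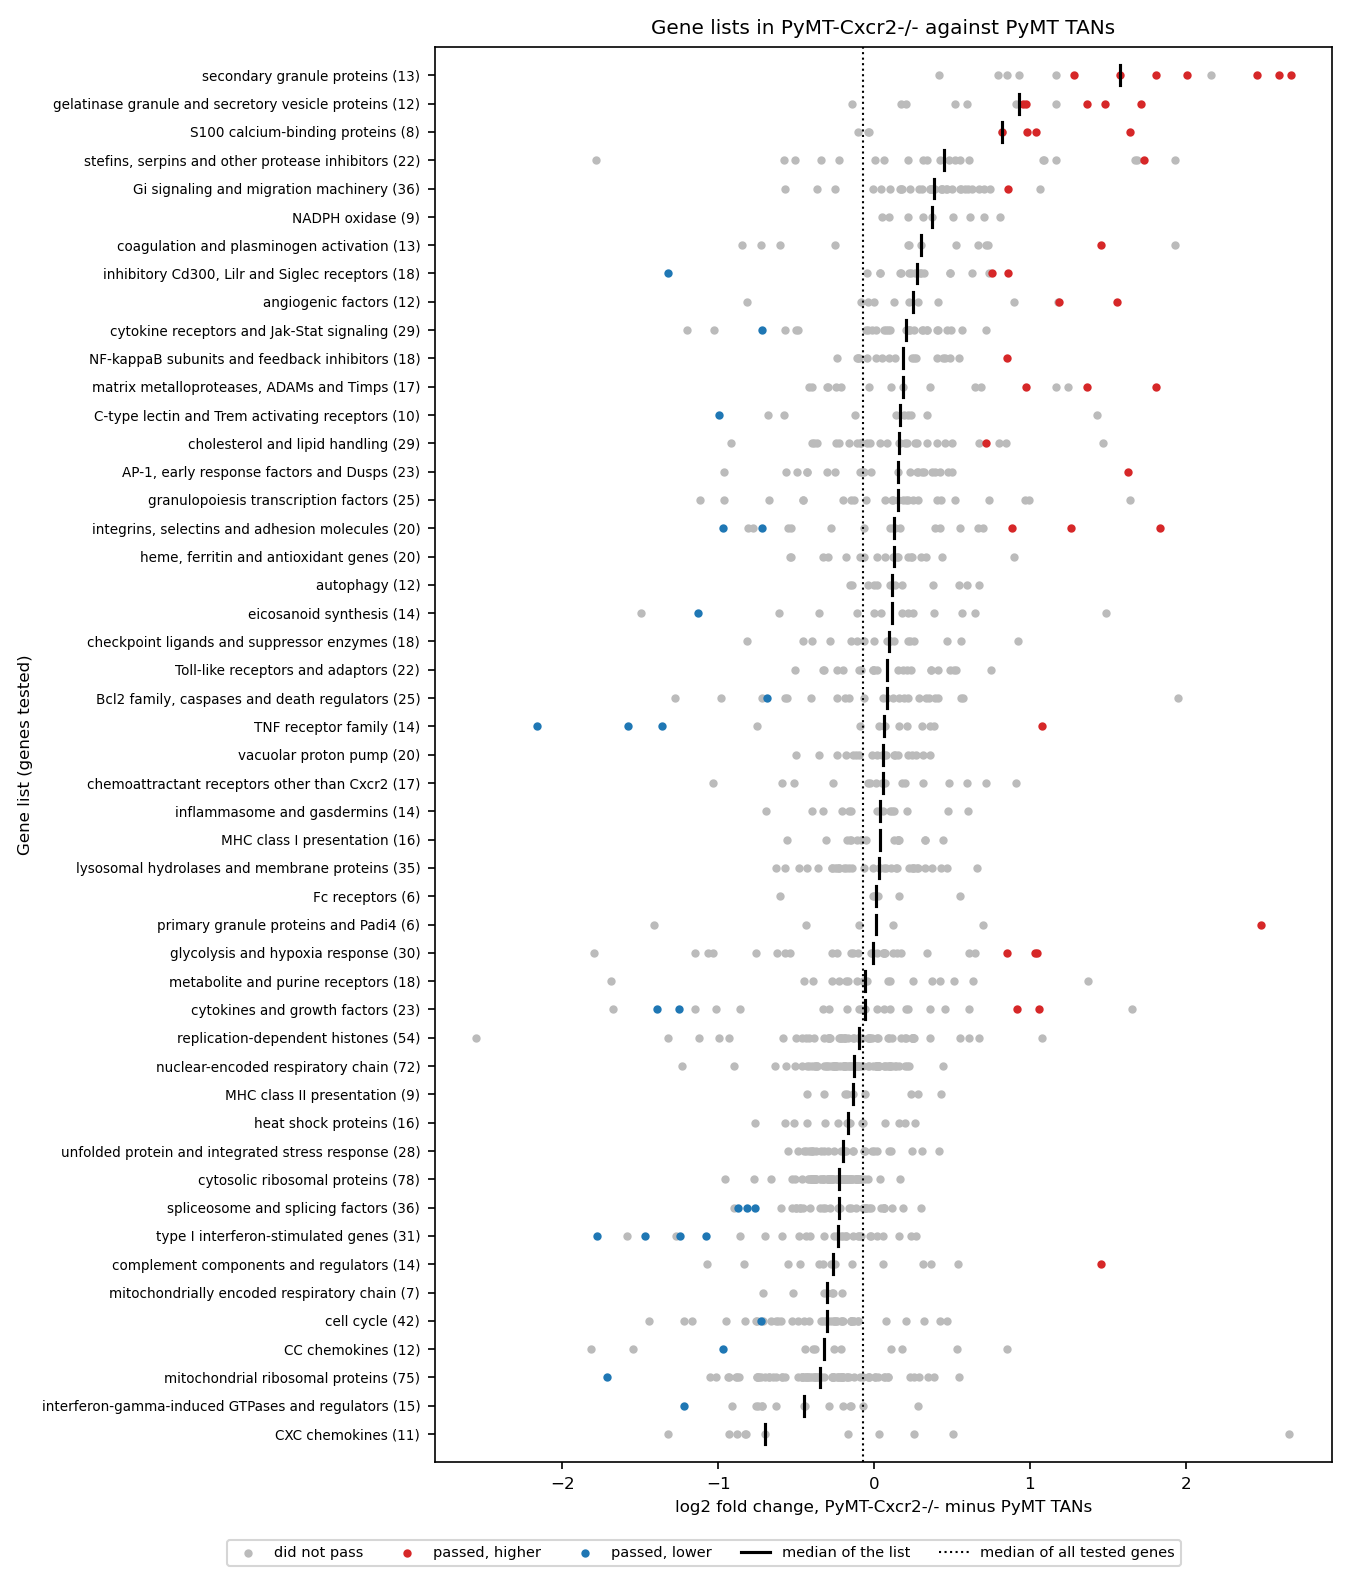
Log2 fold change (horizontal axis, Cxcr2-deficient minus Cxcr2-intact TANs) of every tested member of the 49 gene lists (vertical axis, number of genes tested in brackets), with 1 point per gene, the median of each list as a black bar and the median of all 18462 genes as a dotted line. Secondary granule proteins had the highest median (1.58) with 7 of 13 members past the test, and the CXC chemokines the lowest (-0.70) with no member past it. The median of the CXC chemokines was -0.31 without PyMT TAN 2 and PyMT TAN 3, and their most abundant member, Cxcl2, was at -0.17.

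**Figure D2:**
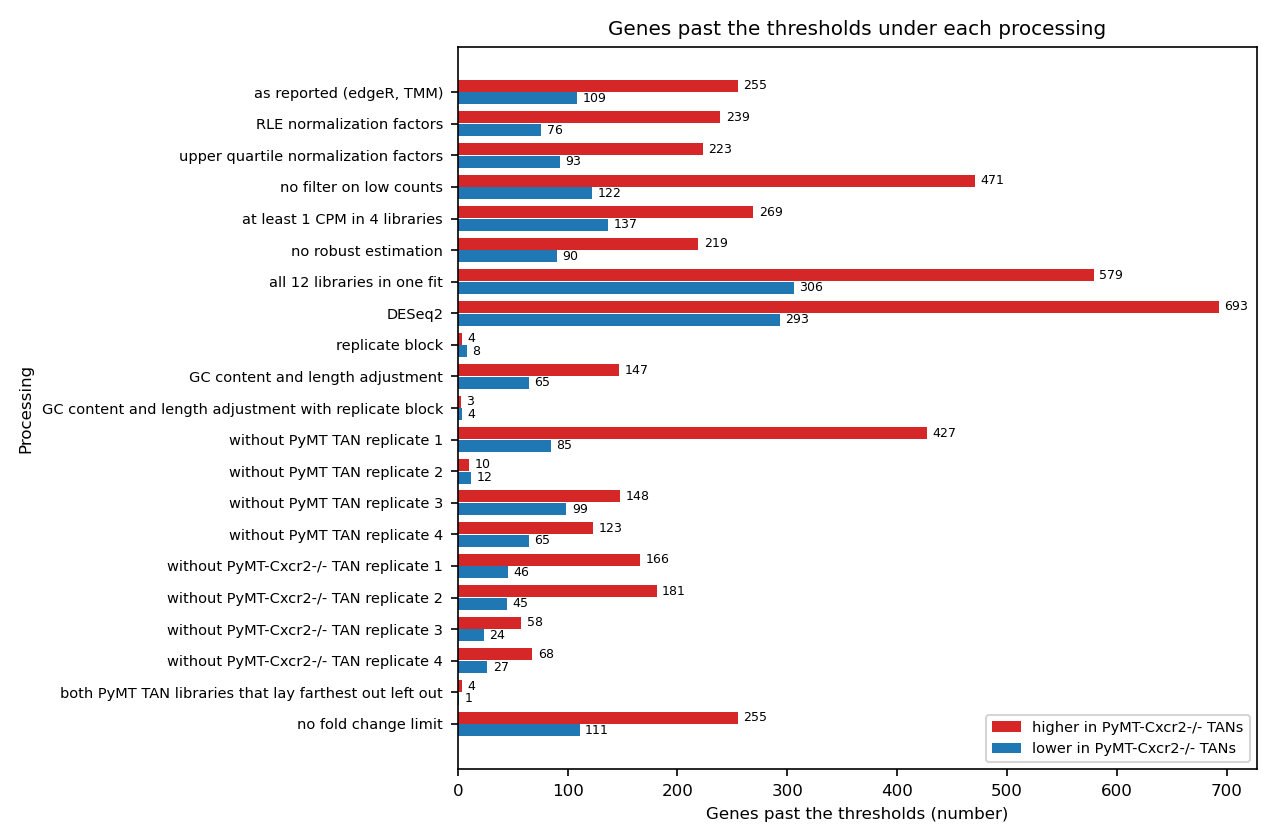
Number of genes higher (red) and lower (blue) in Cxcr2-deficient TANs (horizontal axis) under each processing (vertical axis), with the result reported here at the top. The bars for higher genes run from 3, with the replicate block and the correction for GC content and length together, to 693 with DESeq2.

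Transcripts of most secondary granule proteins were higher. Of 13 members tested, 7 passed as higher and none as lower, and all 13 had a positive log2 fold change, with a median of 1.58 against -0.07 over all genes. The members that passed were, from the largest change down, Camp (cathelicidin, an antimicrobial peptide), Ngp (a cystatin-related granule protein), Ltf (lactoferrin, which binds iron), Cd177 (a surface and granule glycoprotein), Mmp8 (neutrophil collagenase), Lcn2 (lipocalin-2, which binds bacterial siderophores) and Pglyrp1 (which binds peptidoglycan). Camp (ENSMUSG00000038357; chromosome 9, 109847379 to 109849617 in mm10) was at 36.9, 53.8, 43.6 and 16.1 CPM in PyMT TANs 1 to 4 and at 145, 167, 159 and 516 CPM in PyMT-Cxcr2-/- TANs 1 to 4, a log2 fold change of 2.68 with a standard error of 0.50 (adjusted p = 0.029, edgeR). PyMT-Cxcr2-/- TAN 4 stood above its 3 group mates and PyMT TAN 4 below its own, with no overlap between the groups. Ltf (ENSMUSG00000032496; chromosome 9, 111019271 to 111042767) was at 251, 361, 226 and 224 CPM in Cxcr2-intact TANs and at 868, 1233, 1031 and 2855 CPM in Cxcr2-deficient TANs, which was 5.50-fold higher (adjusted p = 0.0113, edgeR), again highest in mouse 4. Ltf was the one gene of the class that passed with each mouse left out in turn. Cd177 rose from 176 ± 73.9 to 725 ± 333 CPM (SD, n = 4 per group) and Lcn2 from 369.6 ± 78.7 to 1131 ± 398 CPM, and Mmp8 rose 3.51-fold and Pglyrp1 2.44-fold. The other 6 members, Chil3, Wfdc21, Lyz2, Hp, Olfm4 and Orm1, had log2 fold changes from 0.42 (Orm1, an acute-phase glycoprotein) to 2.16 (Chil3, a chitinase-like protein) without passing. Camp passed in 3 of the 8 omissions (those of PyMT TAN 4, PyMT-Cxcr2-/- TAN 1 and PyMT-Cxcr2-/- TAN 4), and without PyMT-Cxcr2-/- TAN 4 Cd177 and Pglyrp1 were lost, Cd177 also without PyMT TAN 3. Without PyMT TAN 2, 1 member of the class passed, without PyMT-Cxcr2-/- TAN 3 the number was 4 (Camp, Cd177 and Pglyrp1 were lost), and without PyMT TAN 2 and PyMT TAN 3 together none did, whereas DESeq2 called 12 (3.75% of all genes were higher by DESeq2).

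In BM neutrophils these genes were higher than in either group of TANs. Camp was at 5896, 4373, 3694 and 5440.4 CPM, Ltf at 18980, 14459, 11620 and 14603 CPM and Mmp8 at 5291, 5022, 4382 and 4932 CPM in BM mice 1 to 4. The markers of neutrophil precursors, which mark cells earlier than the secondary granule stage, overlapped between the groups of TANs. Summed over 6 genes (Mpo, Elane, Prtn3, Ctsg, Ms4a3 and Prss57), they were at 2.53 to 10.9 CPM in Cxcr2-intact TANs, 3.59 to 6.61 CPM in Cxcr2-deficient TANs and 51.4 to 84.5 CPM in BM, and none of the 4 tested passed.

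Camp, Ngp and Ltf lie within 2 Mb of each other on chromosome 9, and Mmp8 lies elsewhere on it. The promoters of the secondary granule genes are shown for the 3 that hold, before the start, the letters TTGCNNAA or their reverse complement, a pattern close to the site of the C/EBP factors that act in granulocyte maturation. Each sequence is the stretch of 180 bases before the transcription start in the RefSeq table of build GRCm38.p6, 5′ to 3′ on the strand of the gene, with the matching letters in capitals.
Ngp (chr9:110419628-110419807, plus strand): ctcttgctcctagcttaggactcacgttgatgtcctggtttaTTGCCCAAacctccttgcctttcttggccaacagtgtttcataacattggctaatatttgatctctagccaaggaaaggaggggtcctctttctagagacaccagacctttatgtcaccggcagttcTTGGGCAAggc
Ltf (chr9:111019112-111019291, plus strand): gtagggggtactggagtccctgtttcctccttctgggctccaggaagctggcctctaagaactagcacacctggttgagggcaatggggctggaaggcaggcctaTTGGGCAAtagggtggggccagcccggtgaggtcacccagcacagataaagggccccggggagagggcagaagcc
Mmp8 (chr9:7558249-7558428, plus strand): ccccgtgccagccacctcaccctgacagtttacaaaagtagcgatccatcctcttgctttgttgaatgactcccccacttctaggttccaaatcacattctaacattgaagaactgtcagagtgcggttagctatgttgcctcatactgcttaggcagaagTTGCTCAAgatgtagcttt
Within the whole window of the table (250 bases before to 50 after the start), the pattern was found in 4 of the 7 higher secondary granule genes (Lcn2 is the fourth), and in 10.8% of all 32851 promoters. Both matches of Ngp lie within the printed stretch. The pattern was not in the windows of Camp, Cd177 and Pglyrp1. Of the other patterns searched on both strands, the looser TTNNGNAA was in 40.7% of all promoters and in 5 of the 7, its palindrome TTGCGCAA in 0.183% and in none, and the kappaB pattern GGGNNNTCC and a stricter kappaB pattern of greater length in 17.8% and 4.79% of all and in 4 and 1 of the 7. The looser pattern covers all matches of the palindrome and of TTGCNNAA.

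**Figure D3:**
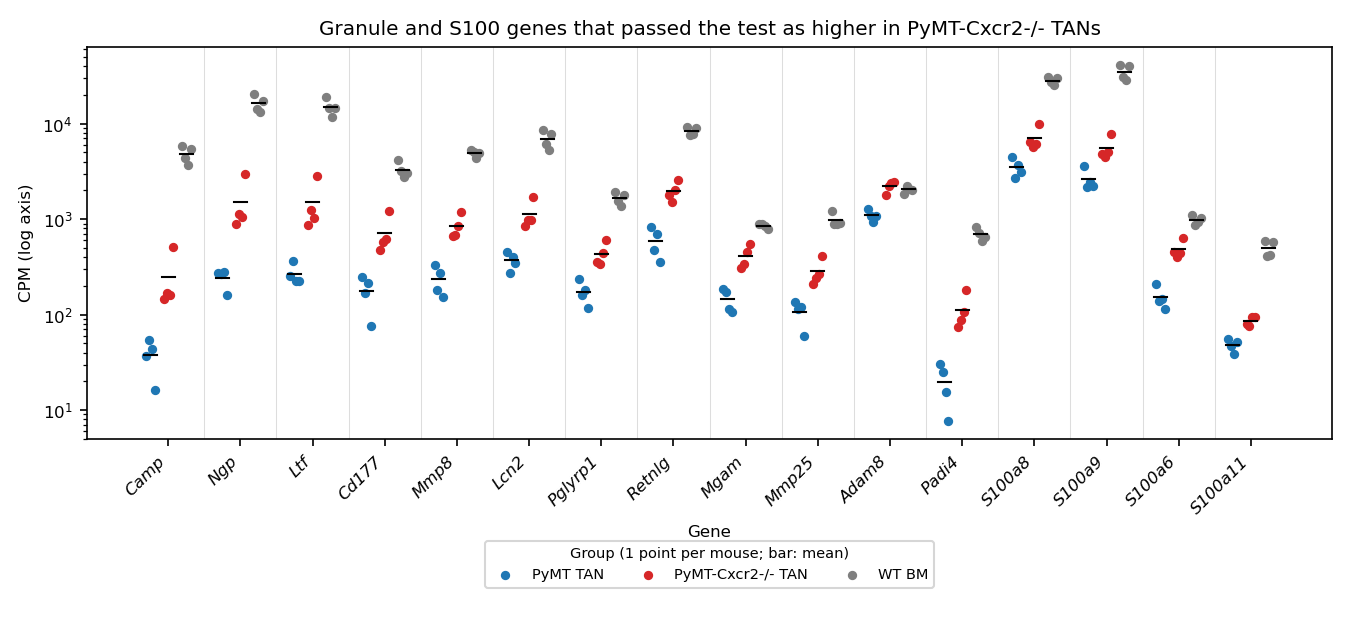
Level of 16 granule and S100 genes (CPM, log axis) in Cxcr2-intact TANs, Cxcr2-deficient TANs and WT BM, with 1 point per mouse and the mean as a bar. In each gene, all 4 PyMT-Cxcr2-/- points lie above all 4 PyMT points, and in all but Adam8 the BM points lie above both.

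Transcripts for proteins of the gelatinase granules and secretory vesicles rose in part. Of 12 tested, 5 passed as higher and none as lower, with a median log2 fold change of 0.93. Retnlg (resistin-like gamma) was at 821, 474, 707 and 358 CPM in Cxcr2-intact TANs and at 1796, 1509, 2044 and 2576 CPM in Cxcr2-deficient TANs, a log2 fold change of 1.71 with a standard error of 0.26 (adjusted p = 0.0113, edgeR). The lowest PyMT-Cxcr2-/- mouse thus lay above the highest PyMT mouse. Mgam (maltase-glucoamylase) rose 2.79-fold, Mmp25 (a membrane-anchored metalloprotease) 2.58-fold, Adam8 (a metalloprotease of the cell surface) 1.97-fold and Mcemp1 (a membrane protein of mast cells and myeloid cells) 1.94-fold. Adam8 was already at 1099 ± 142 CPM in Cxcr2-intact TANs, and its level in Cxcr2-deficient TANs (2214 ± 290.3 CPM) was close to that in BM (2050.2 ± 151 CPM). None of the 5 passed without PyMT TAN 2, while 8 members did without PyMT TAN 1. Mmp25 and Mcemp1 were lost without PyMT-Cxcr2-/- TAN 3 or 4 and Mmp25 also without PyMT TAN 3, and with correction for GC content and length 3 members passed. The formyl peptide receptors Fpr1 (log2 fold change 0.91, adjusted p = 0.0626, edgeR) and Fpr2 (0.60, adjusted p = 0.203), which sense bacterial peptides, did not pass. Adam8 and Mmp25 overlap other annotated genes, so their counts are uncertain.

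Among the primary granule proteins, the 5 that were tested beside Padi4 did not pass, and Elane, Ctsg and Bpi had too few counts to be tested. Mpo (myeloperoxidase), the proteases Prtn3, Ctsc and Prss57, and the membrane protein Ms4a3 had log2 fold changes from -1.41 (Mpo) to 0.70 (Prss57). Means in Cxcr2-intact and Cxcr2-deficient TANs were 1.99 and 0.77 CPM for Mpo and 1.59 and 1.20 CPM for Prtn3. For Prss57 they were 1.62 and 2.69 CPM and for Ms4a3 0.32 and 0.35 CPM. At such low levels a change could hardly pass, so these genes do not show whether the class differed. Ctsc was at 286 and 275 CPM, against 10.3 CPM in BM. Padi4, placed in the same list for its part in releasing extracellular traps (it converts arginine of histones to citrulline), was at 30.7, 25.2, 15.6 and 7.60 CPM in Cxcr2-intact TANs and at 73.8, 88.3, 107 and 182 CPM in Cxcr2-deficient TANs, 5.58-fold higher (log2 fold change 2.48, standard error 0.42, adjusted p = 0.019, edgeR). Padi4 was lowest in PyMT TAN 4 and highest in PyMT-Cxcr2-/- TAN 4, and the groups did not overlap. It did not pass without PyMT TAN 2, PyMT TAN 3, PyMT-Cxcr2-/- TAN 3 or PyMT-Cxcr2-/- TAN 4.

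Of 8 S100 calcium-binding proteins tested, 4 passed as higher. S100a6 was at 209, 139, 145 and 115 CPM in Cxcr2-intact TANs and at 456, 404, 443 and 634 CPM in Cxcr2-deficient TANs, a log2 fold change of 1.64 with a standard error of 0.20 (adjusted p = 0.00737, edgeR), and it passed with each mouse left out. S100a8 and S100a9, the subunits of calprotectin and the most abundant transcripts of the class, rose 1.97-fold and 2.06-fold, and S100a11 1.76-fold. The other 4 members had log2 fold changes from -0.10 (S100a10) to 0.82 (S100a13) and did not pass. With correction for GC content and length, and without PyMT TAN 2, PyMT-Cxcr2-/- TAN 3 or PyMT-Cxcr2-/- TAN 4, 1 of the 4 passed, and 2 passed without PyMT TAN 3, PyMT TAN 4 or PyMT-Cxcr2-/- TAN 1.

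Other genes with large rises were of diverse function. Ifitm6, a member of the interferon-induced transmembrane family, was at 121, 85.5, 119.7 and 82.9 CPM in Cxcr2-intact TANs and at 318, 350.1, 311 and 614 CPM in Cxcr2-deficient TANs (log2 fold change 1.93, standard error 0.24, adjusted p = 0.00737, edgeR). Lrrk2, a large kinase found in myeloid cells, was at 125, 107, 98.9 and 76.6 CPM in Cxcr2-intact TANs and at 280.1, 314, 392 and 572 CPM in Cxcr2-deficient TANs, 3.74-fold higher (adjusted p = 0.00737). Both passed with each mouse left out in turn. Serpinb1a, an inhibitor of neutrophil elastase and the one member of 22 tested protease inhibitors that passed, was at 15.3, 17, 16.7 and 12.6 CPM in Cxcr2-intact TANs and at 36.1, 37.6, 39.4 and 96.7 CPM in Cxcr2-deficient TANs, where mouse 4 stood well above the others, and it did not pass without PyMT TAN 2, 3 or 4. The surface markers Ly6g and Ly6c2, whose products are used to sort neutrophils and monocytes, rose 3.50-fold and 3.59-fold, from 35.3 ± 12.3 and 25.8 ± 7.41 CPM in Cxcr2-intact TANs. These genes have close paralogs, and reads that match more than 1 place were not counted.

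Of the genes that rose, Snai1, Ccno, Tnfrsf10b and Fosl1 had means above BM in Cxcr2-deficient TANs. All but Fosl1 were above BM in Cxcr2-intact TANs as well. Snai1, a zinc finger repressor best known in epithelial-to-mesenchymal transition, was at 22, 20.6, 16.2 and 19.3 CPM in Cxcr2-intact TANs, 62.6, 57.8, 57 and 80.9 CPM in Cxcr2-deficient TANs and 4.55, 7.10, 3.66 and 4.0 CPM in BM. The TANs differed by 1.69 on the log2 scale with a standard error of 0.16 (adjusted p = 0.00143, edgeR), and it passed with each mouse left out. Ccno, cyclin O, which is known from ciliated cells, was at 0.297, 0.211, 2.43 and 0.308 CPM in Cxcr2-intact TANs and at 22.2, 21.6, 34.7 and 19.9 CPM in Cxcr2-deficient TANs, with PyMT TAN 3 above its group mates, and at 0.0 to 0.187 CPM in BM. It did not pass without PyMT TAN 2. Tnfrsf10b, a death receptor for Trail, was at 7.91 ± 1.69 CPM in Cxcr2-intact TANs, 17.1 ± 1.66 CPM in Cxcr2-deficient TANs and 2.43 ± 0.419 CPM in BM, and Fosl1, a subunit of the transcription factor AP-1, was at 5.31 ± 1.92, 16.8 ± 6.02 and 9.25 ± 2.71 CPM in the same order. Without PyMT TAN 2 or 4 or PyMT-Cxcr2-/- TAN 3 or 4, neither of this pair passed, Fosl1 was also lost without PyMT-Cxcr2-/- TAN 2 and Tnfrsf10b without PyMT-Cxcr2-/- TAN 1. A530040E14Rik, an antisense transcript that overlaps 2 genes on the opposite strand, rose 5.14-fold and passed in each of the alternatives tried.

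Secreted mediators moved in both directions. Of 23 cytokines and growth factors tested, 2 passed as higher and 2 as lower. Osm (oncostatin M, a cytokine of the Il6 family) was at 375, 492, 465 and 359 CPM in Cxcr2-intact TANs and at 759, 754, 843 and 916 CPM in Cxcr2-deficient TANs, a log2 fold change of 0.92 with a standard error of 0.15 (adjusted p = 0.0154, edgeR), and Il1f9 (Il36g, an agonist of the Il36 receptor) rose from 186 ± 29.4 to 396 ± 112 CPM. Tnf was at 124, 138, 225 and 125 CPM in Cxcr2-intact TANs and at 66.8, 43.2, 68.7 and 85.4 CPM in Cxcr2-deficient TANs (-1.25, standard error 0.24, adjusted p = 0.0263), so that the lowest PyMT mouse lay above the highest PyMT-Cxcr2-/- mouse. Il1a, an alarmin of the interleukin-1 family, was at 81.6, 93, 136 and 107 CPM in Cxcr2-intact TANs, 57.1, 34.1, 43.1 and 28.8 CPM in Cxcr2-deficient TANs and 0.373 to 0.800 CPM in BM. Its relative Il1b had a log2 fold change of -0.08 (adjusted p = 0.893) and Il1rn, which blocks their receptor, one of -0.17 (adjusted p = 0.772), so that only Il1a of these 3 passed. None of these 4 cytokines passed without PyMT TAN 2, Il1f9 was also lost without PyMT TAN 3, PyMT TAN 4 or PyMT-Cxcr2-/- TAN 4, Tnf without PyMT-Cxcr2-/- TAN 1 or 2, and all 4 without PyMT-Cxcr2-/- TAN 3.

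Among chemokines, Ccl3 (which attracts monocytes and lymphocytes) fell from 185 ± 27.5 to 96.5 ± 24.5 CPM (SD, n = 4 per group; adjusted p = 0.0299, edgeR) and was the only 1 of 12 CC chemokines to pass. Its neighbor Ccl4 had a log2 fold change of -0.39 (adjusted p = 0.36). None of 11 CXC chemokines passed in edgeR, where 0 were higher and 3 lower at an unadjusted p under 0.05 (7.58% of all genes in each direction), and DESeq2 called 1 as lower (1.59% of all genes). The abundant Cxcl2, a ligand of Cxcr2, was at 3125 ± 602 CPM in Cxcr2-intact TANs and 2849.8 ± 557 CPM in Cxcr2-deficient TANs. Ccl3 passed in 2 of the 8 omissions, those of PyMT TAN 1 and PyMT-Cxcr2-/- TAN 2, and did not pass with relative log expression factors.

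Genes induced by type I interferon were lower in part. Of 31 tested, 4 passed as lower and none as higher. At an unadjusted p under 0.05, 11 were lower and 0 higher (7.58% of all genes in each direction). The median log2 fold change was -0.23 against -0.07 over all genes. Rsad2 (viperin, an antiviral enzyme) was at 70.6, 85.5, 58.8 and 77.1 CPM in Cxcr2-intact TANs and at 30.6, 28.1, 19 and 30.4 CPM in Cxcr2-deficient TANs, a log2 fold change of -1.47 with a standard error of 0.18 (adjusted p = 0.00737, edgeR), and it passed with each mouse left out. Ifit1 (which binds viral RNA) was at 25, 16, 23 and 24.2 CPM in Cxcr2-intact TANs and at 7.32, 6.43, 3.18 and 9.46 CPM in Cxcr2-deficient TANs (-1.78, adjusted p = 0.0167), lowest in PyMT-Cxcr2-/- TAN 3. Oasl1, of the family of oligoadenylate synthetases, fell from 23 ± 1.89 to 9.94 ± 1.72 CPM, and Usp18, which removes Isg15 from proteins, from 11.2 ± 2.0 to 5.41 ± 0.630 CPM. Several other members had values near 0. Irf7 had a log2 fold change of -0.11, Oas1a of -0.02 and Mx1 of 0.02, with adjusted p from 0.851 (Irf7) to 0.994 (Mx1). Ifit2 (-1.27, adjusted p = 0.0913, edgeR), Ifit3 (-1.59, adjusted p = 0.0958) and Herc6 (-0.86, adjusted p = 0.0653) had larger negative values that missed the threshold. Usp18 passed in 1 of the 8 omissions, that of PyMT TAN 3, and without PyMT TAN 2 Rsad2 alone passed of the class. Oasl1 and Usp18 overlap genes on the opposite strand.

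Of 15 GTPases and regulators induced by interferon gamma, Gbp5 (a guanylate-binding protein) passed as lower. It was at 16.4, 18.3, 21.1 and 18.8 CPM in Cxcr2-intact TANs, 5.79, 8.21, 9.70 and 9.08 CPM in Cxcr2-deficient TANs and 0.335 to 0.996 CPM in BM (log2 fold change -1.22, standard error 0.21, adjusted p = 0.0174, edgeR), and it did not pass without PyMT TAN 2 or PyMT-Cxcr2-/- TAN 4. Of the others, 13 had a negative log2 fold change without passing, and the abundant Gbp2 was at 109.8 ± 10.7 and 97.8 ± 16.2 CPM. Genes of antigen presentation, which interferon gamma also induces, did not pass in edgeR (16 genes of class I and 9 of class II) or in DESeq2. At an unadjusted p under 0.05, 1 of class I was higher, 1 was lower and none of class II was either. Of all genes tested, 7.58% in each direction reached that p. H2-Aa of MHC class II was at 791 ± 291 and 716 ± 211 CPM, and B2m of class I at 630.4 ± 41.3 and 583 ± 28.8 CPM.

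The promoters of Ifit1, Rsad2 and Gbp5 are shown because they hold, on either strand, the letters GAAA followed by 2 bases of any kind and GAAA again, the core of the interferon-stimulated response element, with the matches in capitals. As above, each is the stretch of 180 bases before the RefSeq start in GRCm38.p6, on the strand of the gene.
Ifit1 (chr19:34640709-34640888, plus strand): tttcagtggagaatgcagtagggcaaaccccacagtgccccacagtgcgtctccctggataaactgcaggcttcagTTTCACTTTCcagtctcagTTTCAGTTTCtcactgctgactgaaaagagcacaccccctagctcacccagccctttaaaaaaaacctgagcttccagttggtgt
Rsad2 (chr12:26456453-26456632, minus strand): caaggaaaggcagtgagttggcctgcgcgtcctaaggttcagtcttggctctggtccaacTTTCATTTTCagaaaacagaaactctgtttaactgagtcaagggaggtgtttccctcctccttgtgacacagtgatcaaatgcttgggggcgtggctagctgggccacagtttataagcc
Gbp5 (chr3:142496754-142496933, plus strand): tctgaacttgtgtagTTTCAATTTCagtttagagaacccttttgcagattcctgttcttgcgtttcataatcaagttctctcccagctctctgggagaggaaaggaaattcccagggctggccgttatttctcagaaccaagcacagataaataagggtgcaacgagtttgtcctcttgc
Over the window of 300 bases, the pattern was present in 3.44% of all 32851 promoters. Of the 4 lower type I interferon-stimulated genes, 3 were in the table and 2 of them, Ifit1 and Rsad2, held it, and none of the 7 higher secondary granule genes did. Ifit1 holds 2 matches, seen as a repeat of the capitals.

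**Figure D4:**
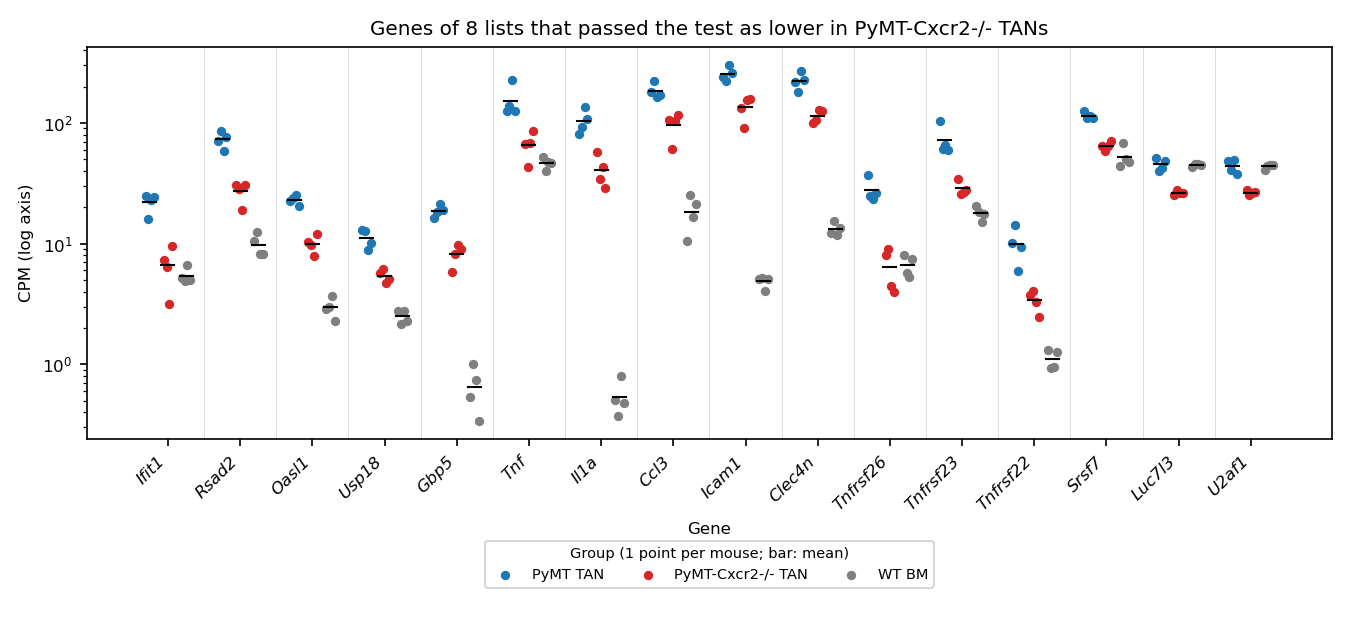
Level of 16 genes that were lower in Cxcr2-deficient TANs (CPM, log axis), from interferon-stimulated genes on the left to splicing factors on the right, with 1 point per mouse and the mean as a bar. The groups of TANs do not overlap in any of the genes, and BM lies below both in 10 of the 16, among them Il1a, Ccl3, Icam1, Gbp5 and Clec4n, and overlaps the PyMT level in Luc7l3 and U2af1.

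A group of TNF receptor genes that lie side by side on chromosome 7 fell. Of these 3, Tnfrsf26 (chromosome 7, 143607659 to 143628722) was at 36.9, 24.6, 23.5 and 26.4 CPM in Cxcr2-intact TANs and at 8.03, 8.96, 4.45 and 3.96 CPM in Cxcr2-deficient TANs, a log2 fold change of -2.17 with a standard error of 0.29 (adjusted p = 0.00842, edgeR). Tnfrsf23 (chromosome 7, 143665809 to 143685872) was at 103, 60.4, 65.4 and 59.5 CPM in Cxcr2-intact TANs, highest in mouse 1, and at 34.4, 25.9, 26.6 and 27.6 CPM in Cxcr2-deficient TANs (-1.36, adjusted p = 0.0102). Tnfrsf22 (chromosome 7, 143634806 to 143649661), whose product like that of Tnfrsf23 is a decoy receptor for Trail, fell from 9.89 ± 3.45 to 3.39 ± 0.705 CPM. Tnfrsf26 and Tnfrsf23 passed with each mouse left out, and Tnfrsf22 did not pass without PyMT TAN 2, PyMT TAN 4 or PyMT-Cxcr2-/- TAN 1, 3 or 4. All 3 overlap genes on the opposite strand, and Tnfrsf22 and Tnfrsf23 are similar in sequence, so how reads were shared out between them is uncertain. Of the other 11 members of the family tested, Tnfrsf10b passed as higher, and the abundant TNF receptors themselves had log2 fold changes of 0.30 (Tnfrsf1a) and 0.21 (Tnfrsf1b) without passing.

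Surface receptors and adhesion molecules changed gene by gene. Siglecf, an inhibitory lectin known from eosinophils and from neutrophils in tissue, was at 175, 127, 139 and 97.2 CPM in Cxcr2-intact TANs, 59.2, 46.4, 64.3 and 50.3 CPM in Cxcr2-deficient TANs and 14.8 to 18.7 CPM in BM, a log2 fold change of -1.32 with a standard error of 0.18 (adjusted p = 0.0102, edgeR), and it did not pass without PyMT TAN 2. The summed markers of mast cells, basophils and eosinophils, of which Siglecf was the 1 that passed, were at 2417 to 3317 CPM in Cxcr2-intact TANs and 3193 to 4555 CPM in Cxcr2-deficient TANs, led by Hdc (2225 to 3113 CPM and 3044.5 to 4423 CPM, a histidine decarboxylase gene that neutrophils express too), with Mcpt8 and Fcer1a at 0 counts in all 8 libraries, and their part in this result was not tested. Clec4n (dectin-2, which recognizes fungal mannans) fell from 223 ± 35.8 to 115 ± 13.9 CPM and was at 13.3 ± 1.63 CPM in BM, while the related Clec4e (mincle) was at 1479.7 ± 302 and 1392 ± 232 CPM in the TANs. Clec4n did not pass after correction for GC content and length. Clec12a (an inhibitory lectin that senses uric acid crystals) and Pirb (an inhibitory receptor for MHC class I) rose 1.81-fold and 1.69-fold, and each passed in 1 of the 8 omissions (Clec12a without PyMT-Cxcr2-/- TAN 2 and Pirb without PyMT TAN 1). Of 20 integrins, selectins and adhesion molecules, 3 passed as higher, Itgb2l and Jaml among them, and Icam1 and Itga5 passed as lower. Icam1, the ligand of the beta-2 integrins that inflammatory signals induce, was at 239.9, 221, 303 and 261 CPM in Cxcr2-intact TANs, 134, 91.3, 154 and 159 CPM in Cxcr2-deficient TANs and 4.06 to 5.17 CPM in BM (log2 fold change -0.97, adjusted p = 0.0251). Jaml, which binds the junction protein Car on epithelium, rose 2.40-fold. Itgb2l, a beta-2-like integrin of neutrophils, rose 3.57-fold, and Itga5, the alpha chain of the fibronectin receptor, fell from 133 ± 13 to 82.8 ± 14.9 CPM. Without PyMT TAN 2 or PyMT-Cxcr2-/- TAN 3 none of the 5 passed, Itga5 passed in none of the 8 omissions and Icam1 in 2 (PyMT TAN 1 and PyMT-Cxcr2-/- TAN 2), Itgb2l was also lost without PyMT TAN 3 or 4 or PyMT-Cxcr2-/- TAN 4, and neither Icam1 nor Itga5 passed after correction for GC content and length. Icam1, Itgb2l and Jaml overlap other annotated genes.

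Genes of the signaling path below chemokine receptors leaned upward, with few calls. Of 36 members of Gi signaling and the migration machinery, 32 had a positive log2 fold change, with a median of 0.38, but Gng2 (a gamma subunit of G proteins) alone passed. Gng2 was at 29.3, 35.3, 24.5 and 28.8 CPM in Cxcr2-intact TANs and at 53.6, 49.7, 54.6 and 61.4 CPM in Cxcr2-deficient TANs. In 17 of the 36, the 4 PyMT-Cxcr2-/- libraries lay above the 4 PyMT libraries (6.89% of all genes), and DESeq2 called 9 as higher (3.75% of all genes). Rac2, a GTPase of hematopoietic cells shared by the list of NADPH oxidase subunits, was at 545 ± 109 and 908 ± 185 CPM (log2 fold change 0.70, adjusted p = 0.0798, edgeR), and Myh9, the heavy chain of non-muscle myosin, at 1780.5 ± 367 and 2818 ± 516 CPM. No subunit of the NADPH oxidase passed in edgeR, while all 9 had a positive log2 fold change. At an unadjusted p under 0.05, 5 were higher (7.58% of all genes in each direction), and DESeq2 called 3 as higher. Of 17 chemoattractant receptors other than Cxcr2, none passed in edgeR, with 2 higher and 2 lower at an unadjusted p under 0.05. DESeq2 made 1 call in each direction (3.75% of all genes higher and 1.59% lower). The most abundant, Ccrl2 and Ccr1, were at 2753 ± 244 and 1277 ± 153 CPM in Cxcr2-intact TANs and 2343 ± 518 and 1479 ± 153 CPM in Cxcr2-deficient TANs. Gng2 did not pass without PyMT TAN 2, PyMT-Cxcr2-/- TAN 3 or PyMT-Cxcr2-/- TAN 4.

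Of 30 genes of glycolysis and the hypoxia response, 3 passed as higher, sugar and lactate transporters and a hexokinase, and none as lower. The list had 14 positive and 16 negative log2 fold changes with a median of -0.01, against 8116 positive and 10346 negative over all genes. At an unadjusted p under 0.05 in edgeR, 5 were higher and 8 lower (7.58% of all genes in each direction). DESeq2 called 5 as higher (3.75% of all genes) and 4 as lower (1.59%). Slc2a3 (Glut3, which takes up glucose) was at 664, 597, 600.2 and 587 CPM in Cxcr2-intact TANs and at 1070.5, 1161, 1387 and 1547 CPM in Cxcr2-deficient TANs, a log2 fold change of 1.04 with a standard error of 0.15 (adjusted p = 0.0102, edgeR). Hk3, the hexokinase of myeloid cells, rose from 128 ± 27.4 to 267 ± 58.8 CPM, and Slc16a3 (Mct4, which exports lactate) from 1199.6 ± 134 to 2216 ± 312 CPM. In BM, Slc2a3 and Hk3 were at 2109 ± 147 and 1010.3 ± 98.9 CPM, above both TANs, and Slc16a3 was at 838 ± 99.1 CPM, below both. Genes known to respond to hypoxia that did not pass had values of either sign, and those given here were picked after their values were seen. Adm (-1.80, adjusted p = 0.158, edgeR), Ankrd37 (-1.15, adjusted p = 0.0701), Egln3 (-1.06, adjusted p = 0.0546) and Ero1l (-1.04, adjusted p = 0.0648) were negative. So were Bnip3 (-0.76), Pdk1 (-0.62), Car9 (-0.27) and Bnip3l (-0.15). Among the positive values were those of Slc2a1 (0.12), Ndrg1 (0.18, adjusted p = 0.764) and Pfkfb4 (0.65, adjusted p = 0.133). The enzymes Gapdh, Ldha and Pkm had log2 fold changes of 0.34, 0.06 and 0.14. None of the 3 higher genes passed without PyMT TAN 2, without PyMT-Cxcr2-/- TAN 3 or 4 only Slc2a3 did, Hk3 was also lost without PyMT TAN 3 or 4, and after correction for GC content and length Slc16a3 did not pass. Slc2a3 and Hk3 overlap other annotated genes. In lipid handling, 1 of 29 genes passed, Lgals3 (galectin-3, a sugar-binding protein), which rose from 182 ± 8.40 to 308 ± 39 CPM and was not called after the same correction or without PyMT-Cxcr2-/- TAN 2 or 4.

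Angiogenic and coagulation genes gave single calls. Prok2 (prokineticin 2, a secreted factor that acts on endothelium and myeloid cells) rose from 69.6 ± 34 to 209.6 ± 58.5 CPM and Anxa1 (annexin A1, an anti-inflammatory protein) from 668 ± 94.2 to 1553 ± 567 CPM, 2 of 12 angiogenic factors tested. F5 (coagulation factor V) was at 47.3, 55, 58.4 and 44.5 CPM in Cxcr2-intact TANs and at 112, 121, 161 and 185 CPM in Cxcr2-deficient TANs, a log2 fold change of 1.46 with a standard error of 0.18 (adjusted p = 0.00737, edgeR), and passed with each mouse left out, the 1 of 13 coagulation genes to do so. Cd55, which protects cells from complement, rose 2.75-fold from 6.97 ± 0.873 CPM as the 1 of 14 complement genes that passed. Ptgs1 (cyclooxygenase 1) fell from 81.5 ± 21.7 to 38.1 ± 6.22 CPM, while Ptgs2 (cyclooxygenase 2) was at 2540.5 ± 646 and 2600.0 ± 501 CPM. F5, Cd55, Prok2, Anxa1 and Ptgs1 overlap other annotated genes, so their counts are uncertain. Prok2 and Ptgs1 were lost without PyMT TAN 2 or 3 or PyMT-Cxcr2-/- TAN 2, 3 or 4, Cd55 without PyMT TAN 2, 3 or 4 or PyMT-Cxcr2-/- TAN 3 or 4, and Anxa1 without PyMT TAN 2, 3 or 4.

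Some factors that process RNA were lower. Of 36 spliceosome and splicing factors, 3 passed as lower and none as higher, 29 had a negative log2 fold change with a median of -0.23, and in 11 the 4 PyMT-Cxcr2-/- libraries lay below the 4 PyMT libraries (5.05% of all genes). Srsf7, a serine- and arginine-rich splicing factor, was at 125, 109.7, 114 and 109.8 CPM in Cxcr2-intact TANs and at 64.4, 58, 64.1 and 70.3 CPM in Cxcr2-deficient TANs, a log2 fold change of -0.87 with a standard error of 0.12 (adjusted p = 0.0102, edgeR), and it passed with each mouse left out. Luc7l3, a factor of the U1 particle, fell from 45.5 ± 5.02 to 26.4 ± 1.14 CPM and U2af1, which recognizes the 3′ splice site, from 44 ± 5.39 to 26.5 ± 1.20 CPM. In BM, Luc7l3 and U2af1 were at 45.1 ± 1.37 and 43.6 ± 1.83 CPM, close to the Cxcr2-intact TANs, and Srsf7 was at 52.2 ± 10.6 CPM, near the Cxcr2-deficient TANs. After correction for GC content and length the same 3 passed and the median of the list was -0.12. Without PyMT TAN 2, PyMT-Cxcr2-/- TAN 3 or PyMT-Cxcr2-/- TAN 4, Srsf7 alone passed, and U2af1 was also lost without PyMT-Cxcr2-/- TAN 1 or 2.

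Ribosomal and cycle genes gave few calls. Of 75 mitochondrial ribosomal proteins, Mrpl52 passed as lower (13, 13, 13.3 and 7.81 CPM in Cxcr2-intact TANs and 4.66, 3.36, 3.34 and 3.35 CPM in Cxcr2-deficient TANs), and the median was -0.35. None of 78 cytosolic ribosomal proteins passed in edgeR or in DESeq2, and 0 were higher and 10 lower at an unadjusted p under 0.05. Of all genes tested, 7.58% in each direction reached that p. A negative log2 fold change was found in 76 of the 78, with a median of -0.22, against 10346 of all 18462 genes. Of 42 cell cycle genes, 37 had a negative log2 fold change (median over the 42, -0.30), and 0 were higher and 6 lower at an unadjusted p under 0.05. Pcna (the sliding clamp of DNA replication) passed and fell from 77.4 ± 4.98 to 47.9 ± 4.21 CPM, and Mki67, the proliferation marker and 1 of the 5 genes with a positive value, was at 78.7 ± 13.5 and 101 ± 22.1 CPM. Casp8 and Jak2 also passed as lower (-0.69 and -0.72), but in none of the 8 fits that left out 1 mouse. Mrpl52 did not pass without PyMT TAN 2, nor did Pcna, which was also lost without PyMT-Cxcr2-/- TAN 2, 3 or 4 and after correction for GC content and length.

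The genes with the largest falls outside these lists belonged to no common class. Rcan1, an inhibitor of the phosphatase calcineurin, was at 129.5, 172, 126 and 115 CPM in Cxcr2-intact TANs, 38.9, 46.6, 34.2 and 36.7 CPM in Cxcr2-deficient TANs and 7.49 to 12.6 CPM in BM, a log2 fold change of -1.83 with a standard error of 0.17 (adjusted p = 0.00105, edgeR), and it passed in each of the alternatives tried. Ambp, which encodes the precursor of alpha-1-microglobulin and bikunin, was at 43.1, 37.3, 45.7 and 29.5 CPM in Cxcr2-intact TANs and at 16.6, 13.6, 14.6 and 13.2 CPM in Cxcr2-deficient TANs. Gpc3 (glypican 3, a heparan sulfate proteoglycan) was at 68.8, 18.3, 29.3 and 19.9 CPM in Cxcr2-intact TANs, highest in mouse 1, and at 6.48, 4.47, 5.30 and 2.90 CPM in Cxcr2-deficient TANs. These 3 passed with each mouse left out, and Rcan1 and Gpc3 overlap other genes. Hic1 (a transcriptional repressor) fell 4.81-fold, Scimp (an adaptor of immune receptors) 2.46-fold, B3gnt5 (a glycosyltransferase of glycolipids) 2.64-fold and 9930022D16Rik 4.41-fold. Slco4a1, an organic anion transporter, fell 2.83-fold (adjusted p = 0.0484, edgeR) but passed in none of the 8 omissions, and Hic1 and B3gnt5 were lost without PyMT TAN 2, Hic1 also without PyMT-Cxcr2-/- TAN 3.

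The neighborhood of Cxcr2 on chromosome 1 was examined because a knockout can carry DNA of another strain around the targeted gene. Within 2 Mb of Cxcr2, 54 genes were tested, of which 3 passed as lower (0.590% of all genes) and 1 as higher (1.38% of all genes). Tns1 (chromosome 1, 73910231 to 74124449; tensin 1, which links integrins to actin) was at 152, 162, 144 and 119 CPM in Cxcr2-intact TANs and at 44, 45.2, 54.6 and 30.3 CPM in Cxcr2-deficient TANs, a log2 fold change of -1.77 with a standard error of 0.19 (adjusted p = 0.00298, edgeR). Rufy4 (chromosome 1, 74125541 to 74148223; a RUN and FYVE domain protein of the endosomal system) was at 83.8, 46.9, 47.4 and 40.1 CPM in Cxcr2-intact TANs and at 17.3, 10.3, 16.2 and 15.8 CPM in Cxcr2-deficient TANs (-1.90, adjusted p = 0.00842). These lie next to Cxcr2 and passed with each mouse left out. Stk11ip (chromosome 1, 75521529 to 75537335), which binds the kinase Lkb1, fell from 49.4 ± 10.8 to 24.9 ± 1.25 CPM and was lost without PyMT TAN 2 or PyMT-Cxcr2-/- TAN 3 or 4. In BM of WT mice, Rufy4 and Stk11ip were at 46.7 ± 1.60 and 61.7 ± 2.22 CPM, near the level of Cxcr2-intact TANs, and Tns1 was at 39.3 ± 3.92 CPM, near that of Cxcr2-deficient TANs. Gm25360, a small nuclear RNA gene with similar copies elsewhere, was at 18.3, 8.78, 22 and 21.9 CPM in Cxcr2-intact TANs, at 227, 152, 132 and 191 CPM in Cxcr2-deficient TANs and at 109 to 147 CPM in BM. The neighboring receptor gene Cxcr1 had a log2 fold change of -1.03 (adjusted p = 0.0567). The genotype and the DNA around the targeted gene cannot be told apart in these 2 groups.

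**Figure D5:**
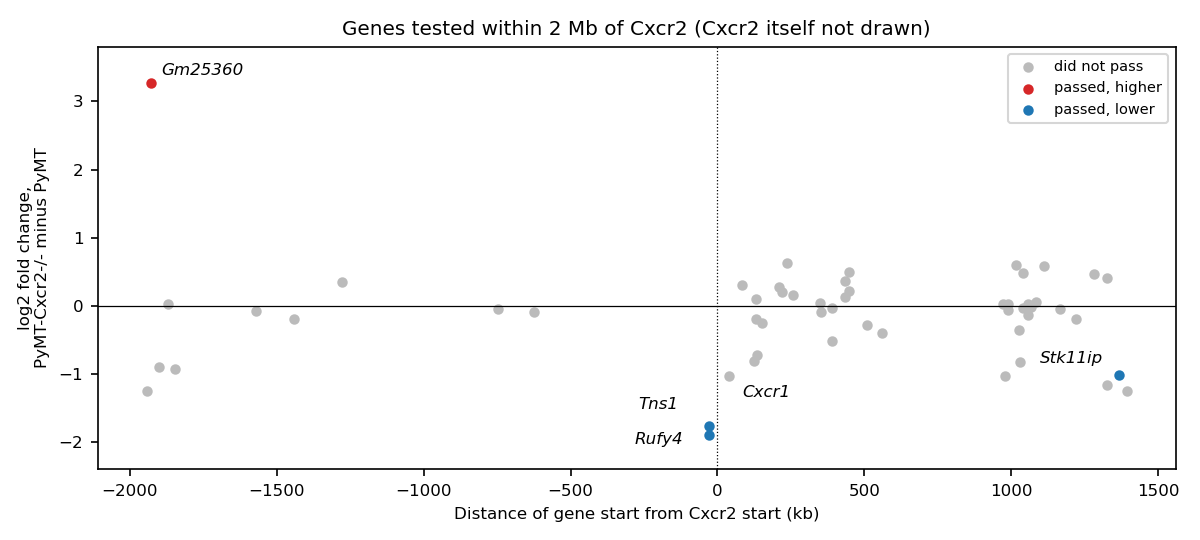
Log2 fold change (vertical axis, Cxcr2-deficient minus Cxcr2-intact TANs) of the 54 genes tested within 2 Mb of Cxcr2 against the distance of their start from that of Cxcr2 (horizontal axis, kb), with 1 point per gene. Tns1 and Rufy4, the genes on one side next to Cxcr2, lie at -1.77 and -1.90.

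Many classes that bear on neutrophil function showed no gene past the thresholds. In 21 of the 49 lists none passed in edgeR. In simulated data, edgeR recovered 30 of 200 genes planted at a log2 change of 1, so a missing call does not show that a class was unchanged. Over their 507 genes, 36 were higher and 38 lower at an unadjusted p under 0.05 (7.58% of all genes tested in each direction), and DESeq2 called 15 as higher (3.75% of all) and 4 as lower (1.59% of all). Beside those already named, they covered Toll-like receptors, the inflammasome, Fc receptors, purine receptors, checkpoint ligands and suppressor enzymes, granulopoiesis transcription factors, heme and antioxidant genes, lysosomal enzymes, the proton pump, histones, heat shock proteins, the unfolded protein response, autophagy and the respiratory chain. Abundant members show the levels of these classes. Cd14 (the co-receptor for lipopolysaccharide) was at 5305 ± 989 CPM in Cxcr2-intact TANs and 6297 ± 477 CPM in Cxcr2-deficient TANs, Nlrp3 at 1837 ± 187 and 1908 ± 434 CPM, Acod1 (which makes itaconate, second in its list to Ptgs2) at 1247 ± 204 and 1881 ± 727 CPM, and Fth1 (ferritin heavy chain) at 2742 ± 323 and 3269 ± 282 CPM. Among the factors of granulopoiesis, Cebpb was at 911 ± 360.2 and 1556 ± 102 CPM (log2 fold change 0.74, adjusted p = 0.17, edgeR). Cebpe, which drives the secondary granule program, had means of 2.45 and 7.85 CPM, a log2 fold change of 1.64 that did not pass (adjusted p = 0.141). In 3 of 25 factors tested, Cebpb and Cebpe among them, the 4 PyMT-Cxcr2-/- libraries lay above the 4 PyMT libraries (6.89% of all genes). In 1 they lay below (5.05%). Of the early response and NF-kappaB genes, Fosl1 and Bcl3 were the ones to pass, with Bcl3 at 132 ± 20.2 and 244 ± 31.5 CPM (lost without PyMT TAN 2 or PyMT-Cxcr2-/- TAN 3 or 4), while the abundant Junb, Dusp1, Nfkbiz and Tnfaip3 had log2 fold changes from 0.10 (Tnfaip3) to 0.49 (Nfkbiz).

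Summed over each list, the markers of other cells given here were present in all 8 tumor libraries and overlapped between the groups. The single genes among them that passed, Ly6c2 and Cd3d, did not overlap. The 13 macrophage and monocyte markers (Adgre1, Csf1r, C1qa and others) summed to 2364 to 5503 CPM in Cxcr2-intact TANs and 2708 to 5397 CPM in Cxcr2-deficient TANs, and Ly6c2 was the one that passed. Mammary epithelial and milk genes summed to 55.1 to 546 CPM in Cxcr2-intact TANs and 96.0 to 407 CPM in Cxcr2-deficient TANs, with 0.120 to 0.514 CPM in BM, and none of 13 passed. Fibroblast, endothelial, B cell, NK cell and dendritic cell markers each summed to at most 78.0 CPM in a tumor library, and none passed. Of the 9 T cell markers, Cd3d passed as higher, from 12.3 ± 3.39 to 28.2 ± 8.35 CPM, with 221 ± 15.4 CPM in BM, and it passed in 1 of the 8 omissions, that of PyMT TAN 3. Hemoglobin and other erythroid and platelet genes summed to 140.1 CPM in PyMT TAN 3 and to 11 to 18.3 CPM in the other 7 tumor libraries. The part of these cells in the differences above was not tested.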

How the data were processed

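RNA of sorted tumor and bone marrow neutrophils was sequenced as 150-base paired-end reads from ribosomal RNA-depleted, directional libraries. The authors checked reads with FastQC, trimmed them, mapped what was left to mm10 using STAR and assigned them to genes by HTSeq (FastQC, HTSeq and mm10 are named in the submitters' processing notes, the other steps in the study's methods). The deposited values are whole-number read counts per gene, 1 table per library, with no normalization. The annotation release and the strand setting of the counting are not given in the sources used here. Reads that fell on no annotated gene in HTSeq were 32.0% to 52.5% of each library's total. Reads that fit more than 1 gene were 1.92% to 2.92%, and those aligned to more than 1 place 6.07% to 11.4%. All of these were left out. Gene identifiers were named and placed with GENCODE M21 on mm10 (55154 of 55335 matched).

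Total counts were 25032704 to 51351569 in the 8 tumor libraries and 38722900 to 44310707 in the 4 BM libraries. PyMT-Cxcr2-/- TANs were compared with PyMT TANs with edgeR 4.0.16 in R 4.3.3: filterByExpr, TMM factors, robust quasi-likelihood test, Benjamini-Hochberg adjustment over all genes tested, with calls at an adjusted p under 0.05 and at least 1.5-fold, the thresholds of the study's methods. Standard errors were the log2 fold change divided by the root of its F value. CPM use TMM factors over all 12 libraries. Cxcr2, the targeted gene, was left out of counts. In data simulated from these libraries, edgeR recovered 30, 114 and 138 of 200 planted genes at log2 changes of 1, 2 and 3, with 3, 4 and 9 false calls, and DESeq2 recovered 69, 141 and 159 with 41, 46 and 45 false calls.

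Genes were named by rule: in each of 49 lists, up to 4 called members with the largest change (or, where under 2 passed, the 2 most abundant), genes also called by DESeq2, the replicate block and the GC and length adjustment, the 12 higher and 12 lower protein-coding genes with the largest change at an average log2 CPM of at least 3 that overlap no other gene, and called genes within 2 Mb of Cxcr2. Other genes were named after their values were seen. Members and lists were chosen with earlier results of these data known. Alternatives were other factors (relative log expression, upper quartile), no filter or a minimum of 1 CPM in 4 libraries, no robust estimation, all 12 libraries in one fit, DESeq2 1.42.0, the replicate number as a block, a correction for GC content and length (splines with 5 degrees of freedom, 99.87% of tested genes), no fold limit, and each mouse left out. Leaving out PyMT TAN 2 and 3 together was added after seeing the data. Promoters were from RefSeq (GRCm38.p6). Nothing states more than 1 sequencing run or batch, and p-values measure the spread between mice.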

Additional observations from a re-analysis of the deposited data

Results flagged for a closer look

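A library was singled out here where its gap to the nearest of its 3 group mates took more of the range of the group than Dixon's 95% critical value. Of 176 group values examined over 88 items, 20 did so. For independent, normally distributed values, about 1 in 20 would. CPM of several genes in the same library are not independent, so the number flagged cannot be judged against that rate.

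PyMT-Cxcr2-/- TAN 4 accounted for 8 of the flagged values, each time as the highest of its group. Among granule and S100 genes it stood at 515.5 CPM of Camp (145 to 167 CPM in its group mates), 2964.5 CPM of Ngp (891 to 1124 CPM), 9942.9 CPM of S100a8 (5749 to 6376 CPM) and 96.7 CPM of Serpinb1a (36.1 to 39.4 CPM). It was likewise at 2400.5 CPM of Anxa1 (1234.5 to 1325 CPM), 613.7 CPM of Ifitm6 (311 to 350.1 CPM), 147.8 CPM of Ly6c2 (73.6 to 82.7 CPM) and 182.8 CPM of Ly6g (106 to 111 CPM). Without this library, Camp, Ngp, Ifitm6, Serpinb1a, Anxa1, Ly6c2 and Ly6g still passed, and S100a8 did not.

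In PyMT TANs, mouse 4 was the lowest for Ngp, at 161.4 CPM (264 to 277 CPM in its group mates), and for Mrpl52, at 7.81 CPM (13 to 13.3 CPM). PyMT TAN 1 was the highest for Tnfrsf23 at 102.8 CPM (59.5 to 65.4 CPM), for Slc2a3 at 663.7 CPM (587 to 600.2 CPM) and for Rufy4 at 83.8 CPM (40.1 to 47.4 CPM). PyMT TAN 3 was the highest for Tnf at 225.4 CPM (124 to 138 CPM), for B3gnt5 at 18.0 CPM (13.7 to 14.1 CPM) and for Ccno at 2.43 CPM (0.211 to 0.308 CPM). The same library was at 140.1 CPM for the summed erythroid and platelet markers (11 to 18.3 CPM), and PyMT TAN 2 at 2.29 CPM for the summed adipocyte markers (0.0332 to 0.370 CPM). In PyMT-Cxcr2-/- TANs, mouse 3 was the highest for Ccno at 34.7 CPM (19.9 to 22.2 CPM) and mouse 1 for Mrpl52 at 4.66 CPM (3.34 to 3.36 CPM).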

How the results depend on the processing

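The 255 higher and 109 lower genes kept their direction under every alternative, and no alternative reversed a call. The number of higher genes was 471 with no filter on low counts, 579 with all 12 libraries in one fit and 693 with DESeq2, and it was 147 after correction for GC content and length. The number of lower genes was 306 with all 12 libraries, 293 with DESeq2 and 65 after the same correction. With each mouse left out in turn, 10 to 427 genes were higher and 12 to 99 lower, the lowest numbers both without PyMT TAN 2, and without PyMT TAN 2 and PyMT TAN 3 together 4 were higher and 1 lower. The fit without PyMT TAN 2 had 2654 genes at an unadjusted p under 0.05, against 2799 with all 8 libraries, and the cause of the difference in calls was not tested.

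The replicate number as a block gave 4 higher and 8 lower genes, and with the GC and length adjustment as well 3 higher and 4 lower. The labels give each group numbers 1 to 4 without saying that a number marks a shared litter, batch or day, and the deviations of same-numbered mice correlated between -0.227 and -0.0756, so no shared factor behind the numbers is known, whether there is one was not settled, and the mice were treated as unpaired.

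Of 75 called genes named by the rules, 71 were called with relative log expression factors, 72 with upper quartile factors, 68 with no filter, 61 after the GC and length adjustment and 20 without PyMT TAN 2. Depth limits the genes of few counts, such as Mpo and Ms4a3 at under 2 CPM in TANs. Genes that overlap a neighbor, and close paralogs, may share reads.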

Other observations

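Some called genes outside the lists are named here after their values were seen. They stand as single genes, since the other members of their pathways were not counted. G6pdx, the first enzyme of the pentose phosphate pathway, was at 219, 178, 186 and 123.1 CPM in PyMT TANs and at 310.5, 325, 361 and 567 CPM in PyMT-Cxcr2-/- TANs (adjusted p = 0.0289, edgeR). Pgd, of the same pathway, rose from 399.9 ± 86.3 to 773 ± 192 CPM and Tkt (transketolase) from 133 ± 27.8 to 311 ± 86.8 CPM (SD, n = 4 per group), and in BM the 3 genes were at 824 ± 108, 2356 ± 339.8 and 1265 ± 205 CPM. Flna (filamin A, which links actin) was at 1166, 1185, 1154 and 747 CPM in PyMT TANs and at 2017, 2075, 2298 and 3394 CPM in PyMT-Cxcr2-/- TANs, and Actn1 (alpha-actinin) rose 2.02-fold, Cnn2 (calponin 2) 2.27-fold and Svil (supervillin) 1.90-fold. Anxa2, Anxa3 and Anxa11, annexins that bind membranes with calcium, rose 1.55-fold, 1.94-fold and 1.82-fold, and the adhesion receptor genes Ceacam1 and Ceacam10 rose 2.23-fold and 2.57-fold. None of these genes passed without PyMT TAN 2, and Pgd, Flna, Svil, Anxa2, Anxa3, Anxa11 and Ceacam10 did not pass after correction for GC content and length.

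Lower genes were named in the same way. Las1l, which takes part in processing of ribosomal RNA, was at 21.2, 25.3, 22.3 and 23 CPM in PyMT TANs and at 14.8, 10.6, 11.9 and 10.2 CPM in PyMT-Cxcr2-/- TANs (log2 fold change -0.98, adjusted p = 0.0191, edgeR), and Imp4 and Utp18, of the small subunit processome, fell 1.70-fold and 1.70-fold. Hnrnpr, Hnrnph1, Prpf3, Dhx15 and Lsm3, which bind or process RNA, fell 1.88-fold, 1.62-fold, 2.0-fold, 1.56-fold and 2.39-fold. Tfrc, the transferrin receptor, fell from 52.6 ± 7.54 to 28.2 ± 4.50 CPM, Ikbke, a kinase of the antiviral response, from 43.4 ± 14.2 to 19.5 ± 2.23 CPM, and Cd69, an early activation marker, from 129 ± 23.9 to 60.2 ± 21.4 CPM with 8.83 ± 2.71 CPM in BM. Cd69, Hnrnph1 and Utp18 passed in none of the 8 fits that left out 1 mouse, Hnrnpr, Hnrnph1, Dhx15, Lsm3, Utp18 and Cd69 did not pass with the same correction, and none of these 11 genes passed without PyMT TAN 2.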
